A study of Mus musculus with 4 samples.

Results

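The Tudor domain genes of the germ granules were examined in whole testes of Sympk cKO and wild-type mice at postnatal day 18. The 10 genes Tdrd1, Tdrd3, Tdrd5, Tdrd6, Tdrd7, Tdrd9, Tdrd12, Tdrkh, Stk31 and Rnf17 were chosen by name, and all 10 were found among the 53465 genes of the deposited table. The series holds 4 RNA-sequencing libraries, 2 labelled Sympk cKO, made with the germ cell recombinase Stra8-Cre, and 2 labelled wild type. All mice were males on a mixed C57BL/6-ICR background, and the labels do not say whether the wild-type mice carried floxed alleles or Cre. Stra8-Cre acts in male germ cells from the spermatogonial stage on, so the other cells of the testis keep Sympk. Sympk encodes symplekin, a scaffold of the machinery that cleaves and polyadenylates mRNA 3' ends.

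Tudor domains are small folds that bind methylated arginine or lysine. In male germ cells the Piwi proteins carry symmetrically dimethylated arginines, which Tudor proteins bind, and this gathers the piRNA machinery in granules: the intermitochondrial cement of spermatocytes and the chromatoid body of spermatids. piRNAs are small RNAs that guide Piwi proteins to transposon transcripts and, from the pachytene stage on, to other RNAs. Tdrd3 is the member with a broad, not germ-cell-restricted, role: its protein is a scaffold of the topoisomerase Top3b.

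The libraries held 40994172 and 32730868 counts for cKO and 41584389 and 37764044 counts for wild type, and the lowest count of any of the 10 genes in any library was 117. Levels are given as CPM (counts relative to library size, with TMM factors that correct for differences in library make-up). Whole-testis Sympk RNA stood at 171.5 and 173.2 CPM in cKO and 225.2 and 192.0 CPM in wild type, with a log2 fold change of -0.28 (SE 0.141) that did not pass the test (adjusted p = 0.132, edgeR's quasi-likelihood test). Without wild-type library 2 it was -0.41. On the scale of the Sertoli markers it was -1.35 and called. There 12768 of all 21822 genes tested were called lower and 604 higher, with a median log2 fold change of -1.09. Gene counts do not separate the deleted exons, so Sympk RNA is a weak check of the labels. Of 24 Sertoli cell markers 23 were called higher, and their summed level was 10242 and 9254 CPM in cKO against 4410 and 4852 CPM in wild type. The summed level of 10 skeletal muscle genes was 2729 and 1668 CPM in cKO against 54.7 and 808.6 CPM in wild type, so muscle RNA differed between libraries of 1 group, and 3 of the 10 were called higher. Also called higher were 8 of 12 Leydig, 7 of 10 peritubular, 11 of 11 endothelial, 9 of 11 macrophage and 4 of 6 red blood cell markers. Over all genes tested, 29.2% were called higher. With libraries scaled to the Sertoli list, 2 Leydig, 2 peritubular, 0 endothelial, 2 macrophage and 0 red blood cell markers were called higher. Called lower on that scale were 1 Leydig, 4 peritubular, 0 endothelial, 1 macrophage and 1 red blood cell marker. The mitochondrial genome gave 10.19% and 8.81% of all counts in cKO against 4.93% and 4.01% in wild type. The part of muscle and mitochondrial RNA in the results below was not tested directly. All 10 genes stayed lower past the threshold without the mitochondrially encoded genes and without any single library.

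All 10 Tudor domain genes were lower in cKO testes. Each of them passed the test (adjusted p from 1.84e-05 to 4.08e-04, threshold 0.05, edgeR's quasi-likelihood test, Benjamini-Hochberg over 21822 genes) and 0 were higher. Of all genes tested, 34.3% were called lower and 29.2% higher, so a call alone is common in these data. The log2 fold changes ran from -7.68 for Tdrd6 to -1.28 for Tdrd3, with a median of -3.06 beside a median of -0.02 over all genes tested. A call with a log2 fold change of -2 or below was made for 9 of the 10 genes, and for 16.7% of all genes tested. Together the 10 genes held 0.0369% and 0.0439% of all counts in cKO, against 0.333% and 0.328% in wild type. In all 10 genes both cKO libraries lay below both wild-type libraries, which was so for 42.9% of all genes tested. In bulk tissue, fewer cells of a type and less RNA per cell cannot be told apart.

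**Figure D1:**
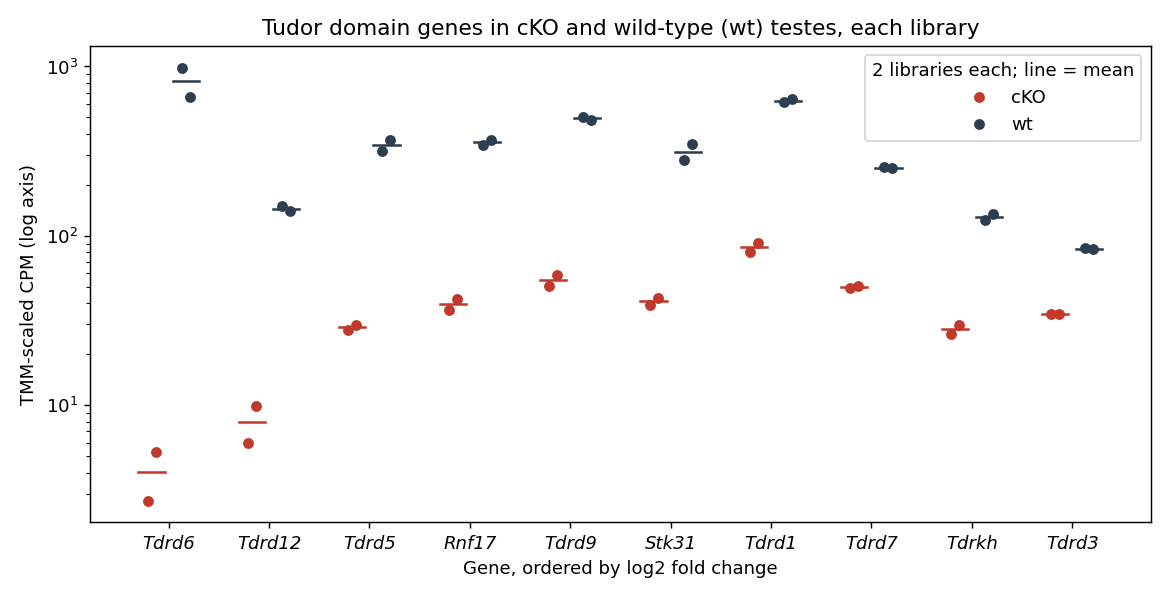
TMM-scaled CPM on a log axis for each of the 10 Tudor domain genes, with 1 point per library, cKO left of wild type, and a line at the mean of 2 libraries. The cKO points lie below the wild-type points for all 10 genes, with the widest gap for Tdrd6 and the narrowest for Tdrd3.

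Tdrd6 fell furthest of the 10 genes. Tdrd6 (ENSMUSG00000040140) encodes a protein of many Tudor domains that is needed to build the chromatoid body in spermatids. The gene lies on the minus strand of chromosome 17 from 43615335 to 43630299 (GRCm38), and 6049 of its 6405 coding bases are in 1 exon. Its level was 2.73 and 5.31 CPM in cKO against 984.8 and 661.9 CPM in wild type. The groups were far apart, and the libraries also differed within each group. The cKO values rest on 117 and 194 counts, with exact Poisson 95% intervals of 2.26 to 3.28 and 4.59 to 6.12 CPM, so the spread between the cKO libraries was larger than counting error. The log2 fold change was -7.68 (SE 0.434, adjusted p = 4.21e-05), or 0.489% of the wild-type mean.

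Tdrd7 and Tdrd5, which also encode proteins of the chromatoid body, had smaller log2 fold changes. Tdrd7 (ENSMUSG00000035517, chromosome 4, 45965334 to 46034761, plus strand) encodes a protein that takes part in remodelling the chromatoid body. It had 49.2 and 50.5 CPM in cKO against 254.5 and 250.5 CPM in wild type. Libraries of the same genotype were nearly equal, and the log2 fold change was -2.34 (SE 0.130, adjusted p = 3.95e-05). Tdrd5 (ENSMUSG00000060985, chromosome 1, 156255296 to 156303664, minus strand) encodes a protein that binds piRNA precursor transcripts. Its level was 27.7 and 29.8 CPM in cKO against 318.5 and 368.3 CPM in wild type. Its cKO libraries were close and its log2 fold change of -3.58 (SE 0.157, adjusted p = 1.84e-05) was the third lowest of the group. The antisense gene 4930518J20Rik shares 176 exon bases with Tdrd5 and had 6 and 9 counts in cKO against 904 and 963 in wild type. Whether counting used strand is not given in the sources used here, so reads in that stretch cannot be assigned to one of these genes.

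Among the genes of the intermitochondrial cement and of piRNA production, log2 fold changes ran from -4.20 for Tdrd12 to -2.21 for Tdrkh. Tdrd1 (ENSMUSG00000025081, chromosome 19, 56826209 to 56870012, plus strand) encodes the partner of the Piwi protein Piwil2 in the cement. It had 80.5 and 90.3 CPM in cKO against 613.8 and 641.9 CPM in wild type, a log2 fold change of -2.88 (SE 0.151, adjusted p = 3.30e-05). Tdrd1 kept the highest CPM of the 10 genes in both cKO libraries. Tdrd9 (ENSMUSG00000054003, chromosome 12, 111971559 to 112068854, plus strand) encodes a helicase with a Tudor domain that acts in transposon silencing. Its level was 50.6 and 58.5 CPM in cKO against 503.9 and 485.1 CPM in wild type, with a log2 fold change of -3.18 (SE 0.155, adjusted p = 2.60e-05).

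Tdrd12 had the second largest fall. The gene (ENSMUSG00000030491, chromosome 7, 35469098 to 35537745, minus strand) encodes another helicase-like Tudor protein, needed for secondary piRNA production. It stood at 5.96 and 9.89 CPM in cKO against 150.3 and 139.5 CPM in wild type, a log2 fold change of -4.20 (SE 0.269, adjusted p = 6.67e-05). The cKO libraries differed from each other more than the wild-type libraries did relative to their means. Tdrkh (ENSMUSG00000041912, chromosome 3, 94413273 to 94434668, plus strand) encodes a mitochondrial Tudor and KH domain protein that takes part in trimming piRNA 3' ends. It had 26.3 and 29.8 CPM in cKO against 123.3 and 135.3 CPM in wild type, a log2 fold change of -2.21 (SE 0.146, adjusted p = 7.55e-05). Oaz3, on the opposite strand, shares 2255 exon bases with Tdrkh and had 5 and 0 counts in cKO against 97 and 91 in wild type, so reads of either gene may be counted for the other.

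Rnf17 and Stk31, whose proteins join Tudor domains to other folds, fell by similar amounts. Rnf17 (ENSMUSG00000000365, chromosome 14, 56402581 to 56525032, plus strand) encodes a RING finger and Tudor protein needed for spermatid development. It had 36.5 and 42.1 CPM in cKO against 345.9 and 368.4 CPM in wild type, a log2 fold change of -3.18 (SE 0.153, adjusted p = 2.51e-05). Stk31 (ENSMUSG00000023403, chromosome 6, 49395604 to 49469501, plus strand) encodes a Tudor protein with a kinase-like domain. It had 39.0 and 43.1 CPM in cKO against 280.5 and 347.6 CPM in wild type, a log2 fold change of -2.94 (SE 0.170, adjusted p = 4.56e-05). The lower wild-type library stood 8.22 times above the higher cKO library for Rnf17 and 6.51 times for Stk31.

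Tdrd3 fell least. The gene (ENSMUSG00000022019, chromosome 14, 87416639 to 87545504, plus strand) encodes a Tudor protein that reads arginine methylation on histones and RNA polymerase II. Its level was 34.7 and 34.4 CPM in cKO against 84.7 and 83.3 CPM in wild type. The libraries of each genotype were nearly equal, and the groups did not overlap. The log2 fold change was -1.28 (SE 0.129, adjusted p = 4.08e-04), which left 41.1% of the wild-type mean. For the other 9 genes the cKO mean was between 0.489% and 21.7% of the wild-type mean.

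The cKO libraries differed from each other in one direction for most of these genes. By CPM, 9 of the 10 were higher in cKO library 2 than in cKO library 1, and Tdrd3 was not. The summed level of 17 early spermatocyte markers was also higher in cKO library 2, 636.3 against 440.8 CPM in cKO library 1. So were those of the pachytene (237.7 against 188.7 CPM) and spermatogonial markers (782.0 against 721.2 CPM). Those of the spermatid (7.34 against 8.13 CPM) and Sertoli markers (9254 against 10242 CPM) were lower in cKO library 2. The part of cell make-up in this difference was not tested. Between the wild-type libraries, 5 of the 10 genes were higher in library 2.

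Spermatocyte markers and most tested spermatid markers fell with these genes, while most spermatogonial markers did not. The early spermatocyte list fell in 17 of 17 tested genes, with a median log2 fold change of -3.38 and a summed level of 440.8 and 636.3 CPM in cKO against 5312 and 5501 CPM in wild type. The list of pachytene spermatocyte markers fell in 18 of 18, with a median of -7.00 and a summed level of 188.7 and 237.7 CPM in cKO against 8381 and 8242 CPM in wild type. Of 18 spermatogonial markers, 11 were called higher and 3 lower, with a median of 0.95, and their summed level was 721.2 and 782.0 CPM in cKO against 551.2 and 586.6 CPM in wild type. On the scale of the Sertoli list, 1 of these 18 was higher and 5 lower, with a median of -0.11. Of all 21822 genes tested, 12768 were lower and 604 higher on that scale, with a median of -1.09. With TMM the shares over all genes were 34.3% lower and 29.2% higher. Of 16 spermatid markers 12 were tested and 9 were called lower, with a median of -5.15. The summed level of the 16 was low, at 8.13 and 7.34 CPM in cKO against 84.7 and 85.9 CPM in wild type. Of the 16, 3 had 0 counts in both cKO libraries and 2 had 0 counts in both wild-type libraries. No early or pachytene spermatocyte marker found in the table was at 0 counts in a whole group. Of the 10 Tudor domain genes, Tdrd6, Tdrd12 and Tdrd5 had log2 fold changes below the early spermatocyte median and 7 were above it. Some lay close to that median: Tdrd5 at -0.19 from it (SE 0.157), Tdrd9 at 0.20 (SE 0.155) and Rnf17 at 0.20 (SE 0.153). Each SE here is that of the gene's own fold change and leaves out the spread within the marker list. Tdrd6 was the 1 gene below the pachytene median, at -0.69 from it (SE 0.434), and the 1 gene below the spermatid median. All 10 were below the spermatogonial median. The part of cell make-up in these falls was not tested.

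**Figure D2:**
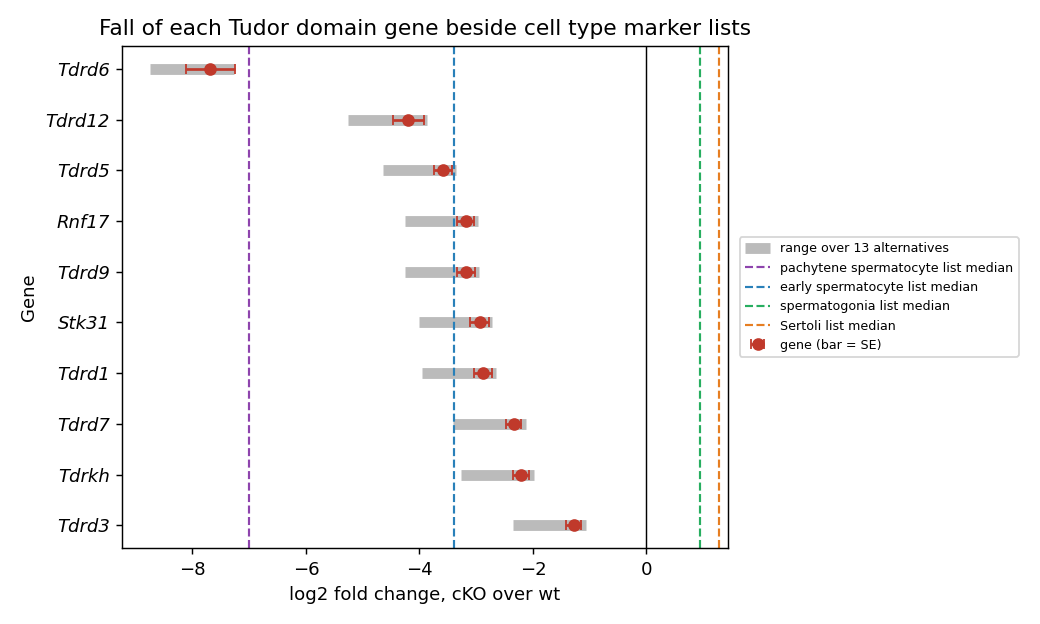
Log2 fold change of cKO over wild type for each Tudor domain gene (point, with SE), its range over 13 alternative analyses (grey bar), and the median log2 fold change of 4 marker lists (dashed lines). Tdrd6 at -7.68 lies left of the pachytene spermatocyte median of -7.00, and Tdrd3 at -1.28 lies closest to 0.

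The order of the 10 genes by level differed between genotypes. Levels were compared between genes on the authors' deposited FPKM, which divides by gene length. In cKO the order from high to low was Tdrd1, Tdrd7, Stk31, Tdrd9, Rnf17, Tdrd3, Tdrd5, Tdrkh, Tdrd12 and Tdrd6, from a mean of 15.9 to 0.537 FPKM. The neighbours Tdrd7 and Stk31, and Stk31 and Tdrd9, overlapped between their libraries. In wild type it was Tdrd1, Tdrd6, Tdrd9, Stk31, Tdrd7, Rnf17, Tdrd5, Tdrd12, Tdrd3 and Tdrkh, from a mean of 100.3 to 10.5 FPKM. There the overlapping neighbours were Tdrd1 with Tdrd6, Tdrd9 with Stk31, Tdrd7 with Rnf17, and Tdrd3 with Tdrkh. The length behind the Tdrkh FPKM was 11378 bases, against 6142 bases in the union of its GENCODE M21 exons. With the exon union as the length, 6 genes in cKO and 4 in wild type kept their rank, and every other gene moved by 1 place.

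The make-up of the group's RNA also differed. Tdrd6 made 0.565% and 0.988% of the 10 genes' summed FPKM in cKO against 21.2% and 14.6% in wild type. The summed FPKM itself was 61.8 and 73.4 in cKO against 517.9 and 522.3 in wild type. Tdrd3 made 8.09% and 7.21% of it in cKO against 2.05% and 2.07% in wild type, and Tdrd7 17.6% and 16.3% against 9.47% and 9.56%. Tdrd9 had nearly the same share in both genotypes, 13.9% and 14.4% in cKO against 14.4% and 14.2% in wild type. Besides Tdrd6, the share of Tdrd5 was lower, 5.49% and 5.31% in cKO against 6.56% and 7.78% in wild type, as was that of Tdrd12, 1.89% and 2.82% in cKO against 4.96% and 4.72% in wild type. These shares sum to a fixed total and are not independent of each other.

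**Figure D3:**
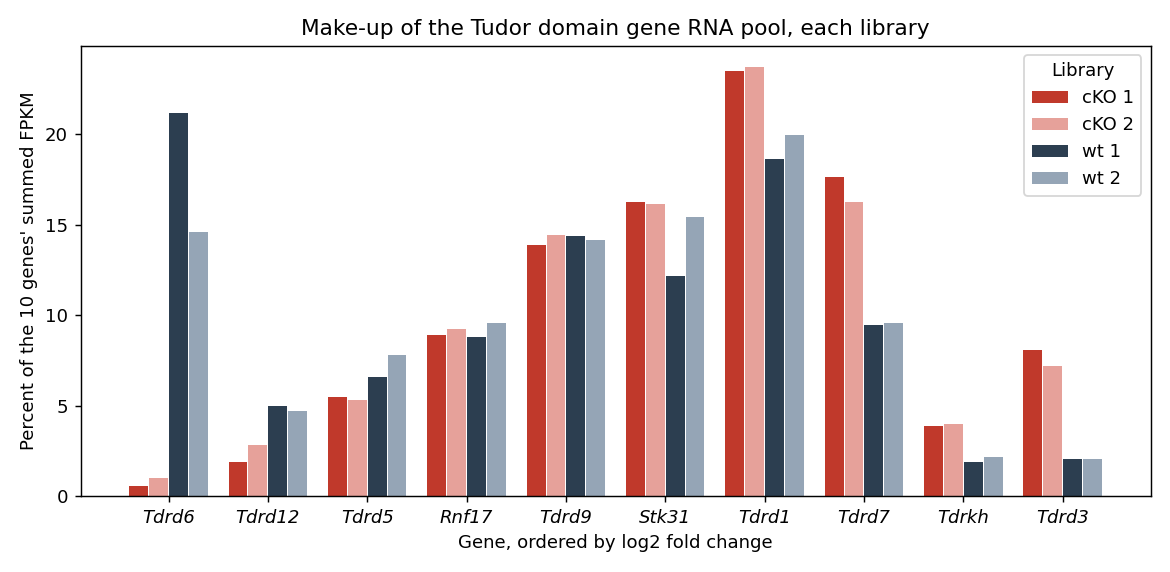
Percent of the 10 genes' summed FPKM contributed by each gene, with 1 bar per library, cKO left of wild type. Tdrd6 stands at 0.565% and 0.988% in cKO against 21.2% and 14.6% in wild type, while the shares of Stk31, Tdrd1, Tdrd7, Tdrkh and Tdrd3 are higher in both cKO libraries.

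The genes with the most similar pattern were found by the distance between 4 centred log2 CPM values, over 11689 named genes that averaged 5 CPM or more. With 4 libraries in 2 genotypes, this measures little beyond the size of the genotype difference. Nearest to Tdrd6 were Mroh2b (distance 0.209), Qrich2 (0.273) and Slc6a21 (0.306), with log2 fold changes of -7.81, -7.78 and -8.39. Nearest to Tdrd3 were Zfp346 (distance 0.0347), Wdr70 (0.0373) and Trim28 (0.0498), with log2 fold changes of -1.26, -1.30 and -1.24.

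The Piwi proteins and piRNA factors that Tudor proteins work with were mostly lower as well. Of 16 listed genes 12 were called lower and 1 higher, with a median log2 fold change of -2.45. Over all genes tested, 34.3% were called lower and 29.2% higher. Piwil1, the Piwi protein of pachytene piRNAs, had 11.2 and 14.0 CPM in cKO against 1545 and 1299 CPM in wild type, a log2 fold change of -6.82 (SE 0.234, adjusted p = 1.25e-05 in edgeR). Pld6, which encodes a mitochondrial enzyme of piRNA production, fell to 3.86 ± 0.737 CPM in cKO against 61.9 ± 7.40 CPM in wild type. Mael, which encodes a granule protein of transposon silencing, fell to 70.3 ± 4.07 CPM in cKO against 1007 ± 260 CPM in wild type (SD, n = 2 for each). Piwil4, the Piwi gene of fetal germ cells, had 8.34 and 7.62 CPM in cKO against 2.62 and 3.52 CPM in wild type, a log2 fold change of 1.38 that was 0.31 and not called on the Sertoli scale.

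Of 15 other genes of the granules, 9 were called lower and 2 higher, with a median log2 fold change of -0.84. The shares over all genes tested were 34.3% lower and 29.2% higher. On the Sertoli scale 13 were lower and 1 higher, with a median of -1.91, where 12768 of all 21822 genes were lower and 604 higher. Ybx2, which encodes a germ cell RNA-binding protein that represses translation, had 16.0 and 28.0 CPM in cKO against 1604 and 1420 CPM in wild type (log2 fold change -6.10, SE 0.337). Ddx25, an RNA helicase gene of the chromatoid body, fell by 4.44 on the log2 scale (SE 0.168), and Ddx4, the Vasa helicase gene, by 3.13 (SE 0.180). Mex3b, which encodes an RNA-binding protein, had 111.2 and 95.5 CPM in cKO against 31.4 and 29.2 CPM in wild type, a log2 fold change of 1.77 (SE 0.147) that was 0.69 and still called on the Sertoli scale. The other higher gene, Dcp1a, was named after its values were seen (log2 fold change 0.43, adjusted p = 0.0263 in edgeR). The count of higher genes was 1 without either cKO library. Piwil1 and Ybx2 are also in the list of pachytene markers.

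Of 21 Tudor family genes outside the germ granules, 6 were called lower and 8 higher, with a median log2 fold change of 0.19. These counts are near the shares over all genes tested, 34.3% lower and 29.2% higher. When libraries were scaled to the Sertoli list, 13 were lower and 0 higher. On that scale 12768 of all 21822 genes tested were called lower and 604 higher, so lower calls were common there. Phf1, which encodes a Polycomb accessory protein with a Tudor domain, had 29.7 and 29.2 CPM in cKO against 222.7 and 179.8 CPM in wild type (log2 fold change -2.77, SE 0.161). Higher on the TMM scale were Phf19 (1.32), the histone reader gene Spin1 (1.08) and the histone demethylase gene Kdm4a (1.04). On the Sertoli scale these were 0.24, 0.01 and -0.04, and none was called.

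Genes of arginine methylation were also examined. Of 7, 5 were called lower and 0 higher, with a median log2 fold change of -0.67. The shares over all genes tested were 34.3% lower and 29.2% higher. On the Sertoli scale 7 were lower, with a median of -1.74, where 12768 of all 21822 genes were lower and 604 higher. Without cKO library 1 the count of lower genes was 3. Coprs, which encodes a nuclear partner of Prmt5, had 5.26 and 6.60 CPM in cKO against 46.7 and 50.6 CPM in wild type (log2 fold change -3.04, SE 0.186). Prmt7 fell by 1.58 (SE 0.171) and Prmt5, the main enzyme of symmetric dimethylation, by 1.02 (SE 0.140) on the log2 scale.

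Of 7 genes whose products work with Tdrd3 or in the same pathway, 2 were called lower and 1 higher, with a median log2 fold change of -0.21, and 4 were lower without wild-type library 2. The main counts do not exceed the shares over all genes tested, 34.3% lower and 29.2% higher. Top3b, the topoisomerase bound by Tdrd3, had 38.2 and 38.9 CPM in cKO against 93.2 and 73.7 CPM in wild type (log2 fold change -1.11, SE 0.161). Fxr1, a relative of the fragile X protein gene, had 185.0 and 190.8 CPM in cKO against 501.2 and 538.7 CPM in wild type (log2 fold change -1.47, SE 0.138). Usp9x was at 694.2 and 617.9 CPM in cKO against 328.6 and 269.7 CPM in wild type, a log2 fold change of 1.13 that was 0.05 and not called on the Sertoli scale.

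**Figure D4:**
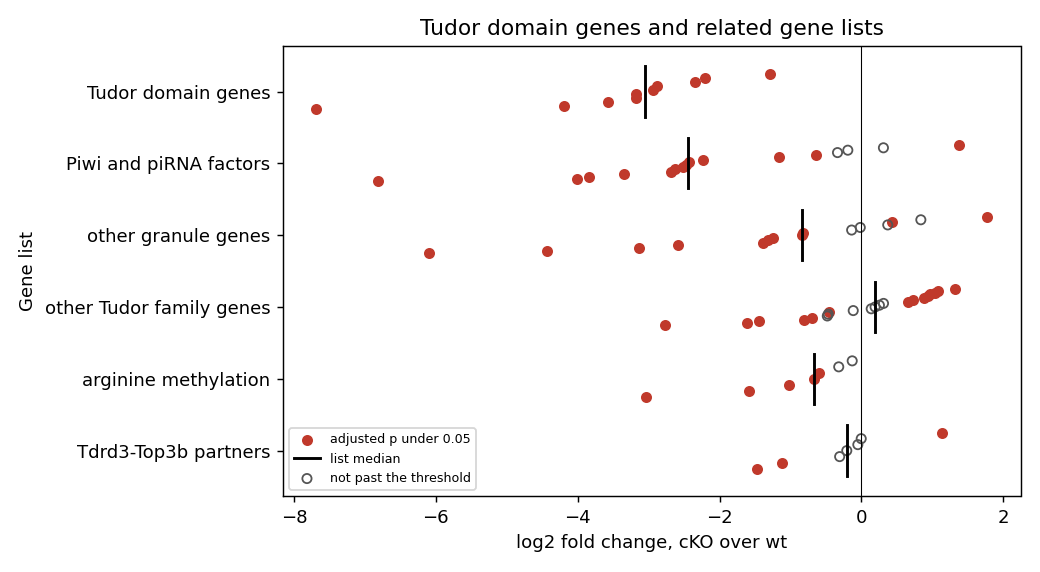
Log2 fold change of cKO over wild type for each tested gene of the Tudor domain group and of 5 related lists, filled where the adjusted p was under 0.05, with the list median as a bar. All 10 Tudor domain genes lie left of 0 and are filled, while the other Tudor family genes lie on both sides of 0.

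Promoter sequences were compared with those of all genes. RefSeq promoters (GRCm38.p6, 250 bases before to 50 after each start) matched 8 of the 10 genes, and Tdrd6 and Rnf17 were not analysed here. They were scanned on both strands for TAACNG or CAACNG, the core letters bound by the Myb family, to which A-Myb, a transcription factor of pachytene spermatocytes, belongs. Of the 8 genes 4 held a match at some start (Tdrd5, Tdrd7, Tdrd12 and Tdrkh), against 53.1% of 27025 genes. The cAMP response element TGACGTCA was in 0 of the 8 and in 2.03% of all genes. The 250 bases before a start are shown for Tdrd12 and Tdrd5, the furthest fallen genes with a promoter, and for Tdrd3, the least fallen, with matches in capitals.
Tdrd12 (chr7:35537745-35537994, minus strand): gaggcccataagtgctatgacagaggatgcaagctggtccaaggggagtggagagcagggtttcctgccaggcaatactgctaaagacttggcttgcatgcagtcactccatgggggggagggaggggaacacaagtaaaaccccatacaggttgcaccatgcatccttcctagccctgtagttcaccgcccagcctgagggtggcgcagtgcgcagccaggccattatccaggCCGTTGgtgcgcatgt
Tdrd5 (chr1:156303349-156303598, minus strand): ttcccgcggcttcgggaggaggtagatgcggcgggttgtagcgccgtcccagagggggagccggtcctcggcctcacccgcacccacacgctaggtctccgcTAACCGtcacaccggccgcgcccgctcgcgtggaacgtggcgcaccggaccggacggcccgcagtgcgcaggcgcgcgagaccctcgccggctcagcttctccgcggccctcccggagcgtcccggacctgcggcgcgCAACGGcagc
Tdrd3 (chr14:87416333-87416582, plus strand): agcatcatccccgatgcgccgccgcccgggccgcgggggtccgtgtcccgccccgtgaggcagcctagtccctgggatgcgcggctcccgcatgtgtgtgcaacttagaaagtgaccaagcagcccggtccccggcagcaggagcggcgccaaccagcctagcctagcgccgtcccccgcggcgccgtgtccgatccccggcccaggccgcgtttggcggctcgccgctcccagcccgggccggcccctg
Tdrd12 and Tdrd5 hold capitals and Tdrd3 has none, but Tdrd1, Tdrd9 and Stk31, which fell by 2.88 or more on the log2 scale, held no match either. A match is a description of letters, not a binding site.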

How the data were processed

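Libraries were paired-end TruSeq RNA, per the labels' protocols. The submitters' processing notes name HISAT2 and GRCm38. How reads were counted, and with which strand setting and annotation, is not given in the sources used here. Deposited by the authors were raw read counts per gene, with library sums of 32730868 to 41584389, and FPKM values scaled to gene length. Counts were used for all tests, and FPKM only to compare genes with each other. Replicates are not said to be separate animals, so p-values measure only a spread between samples that may be technical.

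Counts were filtered with filterByExpr, scaled with TMM and tested with edgeR 4.0.16 (R 4.3.3), cKO against wild type, quasi-likelihood, two-sided, Benjamini-Hochberg over 21822 of 53465 genes, threshold 0.05. Distances between patterns used log2 of CPM plus 0.5. Fold changes are cKO over wild type. Their SE in edgeR was the absolute log2 fold change divided by the square root of the test's F statistic. Intervals cover counting error only. Strand, exons and gene overlaps come from GENCODE M21 (GRCm38), and promoters from RefSeq.

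The 10 genes and the lists were chosen with earlier results of these data known. From each related list the text names up to 3 called genes with the largest change in the direction of the list median and up to 1 in the other, and for the members with the lowest and the highest fold change the 3 nearest genes. To look for a library deposited more than once, counts of replicates were compared: the chi-square per gene was 22.1 for cKO and 46.7 for wild type, above sampling noise, so the 4 libraries were counted as separate samples. Alternatives were RLE factors, library totals, scaling to Sertoli genes, no mitochondrially encoded genes, 2 other filters, DESeq2 1.42.0, limma-voom (limma 3.58.1), a replicate block and leaving out each library. The length used to order levels was varied after seeing the data.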

Additional observations from a re-analysis of the deposited data

How the results depend on the processing

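All 10 Tudor domain genes stayed lower and past the threshold in 130 of 130 fits (13 alternatives for each gene), with log2 fold changes of -8.75 to -7.27 for Tdrd6 and -2.36 to -1.06 for Tdrd3. The split of calls over all genes moved with the scaling. Scaling to the Sertoli list gave 12768 lower and 604 higher genes, against 7477 and 6368 with TMM, moved the median of all genes from -0.02 to -1.09, and moved that of the 10 Tudor domain genes to -4.12. On that scale, called genes were 0 higher among piRNA factors, 13 lower and 1 higher among other granule genes, 7 lower and 0 higher among genes of arginine methylation, 13 lower and 0 higher among other Tudor family genes, and 6 lower and 0 higher among Tdrd3 partners. Kdm4a changed sign there (-0.042). Library totals alone left 3 lower genes of arginine methylation, moved the median of all genes to 0.20, and gave 6423 lower and 7651 higher genes. A mean of at least 5 CPM left 4620 lower genes among the 13299 tested. Leaving out single libraries gave 1 to 3 higher granule genes, 3 to 6 lower arginine methylation genes and 2 to 4 lower Tdrd3 partners. With GENCODE exon lengths, 6 genes in cKO and 4 in wild type kept their rank by level.

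Replicate numbers are in the sample titles, but nothing says that equal numbers pair the samples, and the cKO and wild-type replicate differences had a correlation of -0.07 across genes. A replicate block gave 6937 lower and 5632 higher genes, 10 of 10 Tudor domain genes lower, and 1 higher granule gene. The lone library of a group is assumed to vary like the other group. With 2 libraries per group the spread rests on 2 residual degrees of freedom per gene, shared across genes by the fit. Tdrd6 had the lowest counts, 117 and 194 in cKO, and the least precise fold change of the 10 (SE 0.434). Its cKO libraries differed by more than counting error. The Tdrd6 fold change was -7.27 without cKO library 1 and -8.22 without cKO library 2.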
